A study of Mus musculus with 21 samples.

Results

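The genes described are 10 core members of the Notch pathway, taken by exact symbol from a table of 24091 mouse genes: the receptors Notch1, Notch2 and Notch3, the ligands Jag1, Jag2 and Dll1, and the target genes Hes1, Hey1, Hey2 and Heyl. All 10 symbols were found. Of these, 5 (Notch1, Notch2, Notch3, Jag1 and Hes1) had a mean of at least 1 TPM over all libraries and entered the test across genes, and the other 5 (Jag2, Dll1, Hey1, Hey2 and Heyl) were below that mean. TPM is a transcript level corrected for transcript length, with the same total in every library.

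RNA was sequenced from C3H/10T1/2, a mouse line of embryonic mesenchymal progenitor cells, in 7 groups of 3 libraries that differ in the histone H2B named in their genotype. The control group had wild-type H2B (WT). In the others a glutamate of H2B was replaced by lysine (groups E71K, E76K and E113K) or by glutamine (E71Q, E76Q and E113Q). Lysine turns the negative charge of the side chain into a positive one, and glutamine removes it. All groups share the parental line and the culture medium, and no age, treatment or further allele is given. The labels name no separate lines for a genotype, so a difference between lines and an effect of the substitution cannot be told apart. The submitters call the 3 libraries of a group independent biological replicates without naming separate cultures. The p-values below therefore rest on how much these samples vary, and that variation may be technical.

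Notch receptors sit in the cell membrane and are activated by Jagged or Delta ligands on a neighbouring cell. Binding lets ADAM proteases and then gamma-secretase cut the receptor, and the freed intracellular domain enters the nucleus, joins the DNA-binding protein RBPJ and a Mastermind coactivator, and switches on targets such as the Hes and Hey repressors. In mesenchymal cells the pathway is known for its part in the control of bone, cartilage and fat differentiation, and Notch3 for its role in vascular smooth muscle and pericytes. Transcript levels report how much RNA of each component was present, not whether receptors were cut.

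Promoter sequences were matched in RefSeq (build GRCm38.p6) for 7 of the 10 members, as windows of 250 bases before to 50 bases after the start. No entry was matched for Hes1, Hey1 and Heyl. The core of the RBPJ site, TGGGAA, was searched on both strands. Among the 7 members only Hey2, a target whose RNA was listed at 0 in every WT library and was present in some mutants, had it. Its promoter is shown for that reason, 5′ to 3′ on the gene's strand (chr10:30842781-30843033, minus strand), with the matches in capitals.
Hey2: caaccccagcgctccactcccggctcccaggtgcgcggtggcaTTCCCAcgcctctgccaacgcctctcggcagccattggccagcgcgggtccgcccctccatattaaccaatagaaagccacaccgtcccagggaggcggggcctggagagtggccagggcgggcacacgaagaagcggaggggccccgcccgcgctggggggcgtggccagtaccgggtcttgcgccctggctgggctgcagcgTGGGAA
The match on the opposite strand lies 207 to 202 bases before the start, and the match on the gene's own strand begins 3 bases before it and crosses it. Both extend to the 7-letter form GTGGGAA, which contains the shorter motif. Of 32851 RefSeq promoter windows of 300 bases, 25.6% held TGGGAA and 3.79% held it at least 2 times, while 6.38% held GTGGGAA and 0.256% held that at least 2 times. A match is a description of these letters only.

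The 3 receptor promoters are shown because the receptors moved in different directions (below), each with matches to the GC box GGGCGG on either strand in capitals. They lie at chr2:26503823-26504072 (Notch1, minus strand), chr3:98013288-98013537 (Notch2, plus strand) and chr17:32166891-32167140 (Notch3, minus strand).
Notch1: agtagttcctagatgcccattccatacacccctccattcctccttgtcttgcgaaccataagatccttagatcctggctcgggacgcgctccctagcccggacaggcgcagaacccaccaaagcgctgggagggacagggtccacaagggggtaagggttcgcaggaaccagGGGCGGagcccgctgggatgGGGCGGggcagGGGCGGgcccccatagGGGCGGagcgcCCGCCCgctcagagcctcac
Notch2: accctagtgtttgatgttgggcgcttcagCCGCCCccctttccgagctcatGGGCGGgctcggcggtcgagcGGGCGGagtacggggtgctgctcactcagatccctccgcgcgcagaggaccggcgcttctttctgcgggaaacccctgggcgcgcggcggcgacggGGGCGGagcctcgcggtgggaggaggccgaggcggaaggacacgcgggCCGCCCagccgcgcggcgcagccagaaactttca
Notch3: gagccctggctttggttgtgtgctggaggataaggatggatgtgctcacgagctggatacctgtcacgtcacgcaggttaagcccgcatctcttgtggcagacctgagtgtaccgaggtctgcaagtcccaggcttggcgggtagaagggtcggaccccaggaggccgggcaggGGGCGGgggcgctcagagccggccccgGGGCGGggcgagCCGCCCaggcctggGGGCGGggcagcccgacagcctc
Within these 250 bases there were 5 GC boxes for Notch1, 5 for Notch2 and 4 for Notch3. In the full windows 35.7% of all RefSeq promoters held at least 1 and 19.5% at least 2. The 250 bases were 66.0% G or C for Notch1, 72.0% for Notch2 and 68.8% for Notch3, where the median over all promoters was 52.4%. They contained 16, 34 and 17 CpG pairs, against a median of 6. A GC-rich start with GC boxes was not particular to the 3 receptors. Jag2 (87.2% G or C, 5 GC boxes) and Hey2 (71.6%, 3) had one too, while Jag1 (57.2%) and Dll1 had no GC box. The part of these sequences in the transcript levels described next was not tested.

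Values were compared with limma on log2(TPM + 1) in 1 fit of all 21 libraries, and a gene is said to rise or fall where its Benjamini-Hochberg adjusted p was below 0.05. Fold changes on this scale understate the change of genes with low TPM. Large parts of the transcriptome were called in these comparisons, and the shares are given with the member and pathway counts. The share of TPM taken by 1 annotated microRNA locus, Mir6236, ran from 2.19% of a library (E113K replicate 3) to 30.6% (E71K replicate 2). It scales all other genes of that library. In 4 groups 1 library lay apart from its mates along the main axis of differences within groups: replicate 3 of E71K, E76K and E113Q, and replicate 1 of E71Q. Where leaving out these 4 changed a call or moved a member's fold change strongly, that value is given too. These 4 were chosen in these same data for their distance from their mates. Leaving them out therefore tends to lower the pooled spread, and with it the p-values, also in groups that lose no library. A call that passes only then is a description, not separate support. All 10 mesenchymal markers listed reached 1 TPM in some library, their summed level running from 7394.8 to 11332 TPM, but several of them differed between groups. Thy1 was 0.0791 TPM in E71K, 0.963 TPM in E71Q and 0.472 TPM in E76Q against 66.0 TPM in WT. Eng was 20.7 TPM in WT and 1.13, 1.96, 1.74 and 1.78 TPM in E71K, E71Q, E76K and E76Q, and Cd44 fell in all 6 mutants. Others went the other way. Col1a2 rose in all 6, from 1132 TPM in WT to between 2188 TPM (E113Q) and 4609 TPM (E76K). Thy1 rose in E76K (106 TPM). Pdgfra, Pdgfrb, Prrx1 and Twist1 rose in E113K, while Prrx1 and Twist1 fell in E71Q. The 6 endothelial markers summed to 0.247 to 4.09 TPM and the 3 macrophage markers to at most 0.256 TPM. The 4 epithelial markers summed to 10.6 to 12.3 TPM in WT and to 0.622 to 4.33 TPM in the mutants, where Cdh1 and Krt8 fell in all 6. The 6 markers of dividing cells summed to 560.4 to 613.6 TPM in WT and to 101.8 to 108.9 TPM in E113K, the lowest group. The part of these markers in the Notch results was not tested. In bulk RNA, fewer cells of a type and less RNA per cell cannot be told apart.

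Notch3, a receptor of Entrez Gene identifier 18131 on the minus strand of chromosome 17 (GRCm38 32120820 to 32166896), carried the largest differences of any member. Its WT level was 32.6, 37.0 and 30.9 TPM in replicates 1 to 3. In E71K it was 0.0504, 0.0416 and 0.0236 TPM, in E71Q 0.104, 0.0595 and 0.0319 TPM, and in E76Q 0.0348, 0.0534 and 0.0532 TPM. Notch3 RNA was therefore near 0 in all 9 libraries of these 3 genotypes. E113Q had 8.45, 8.38 and 3.15 TPM, with replicate 3 the lowest. E76K had 12.6, 13.9 and 12.2 TPM. E113K had 23.0, 24.7 and 25.3 TPM, below every WT library. From WT through E113K and E76K to E113Q, each group lay wholly below the one before it, and the 3 groups near 0 lay wholly below E113Q and overlapped each other.

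Against WT, Notch3 fell in 5 of the 6 mutants by limma. The log2 fold change, with a standard error of 0.21 in each comparison, was -5.05 in E71K (adjusted p = 4.5e-12), -5.01 in E71Q (4.47e-12) and -5.04 in E76Q (5.15e-12). It was -2.26 in E113Q (limma adjusted p = 2.55e-07) and -1.31 in E76K (0.000138). In E113K it was -0.44 with a 95% interval of -0.89 to 0.01 and did not pass (limma adjusted p = 0.0925). It was -0.57 (0.0166) after a median-ratio rescaling and passed there, as it did after quantile normalization, with a pseudocount of 5, in a fit of the 2 groups and without the 4 libraries that lay apart. In the 3 groups near 0 the size depends on the pseudocount, the number added before the logarithm: for E71K it was -7.92 with 0.1 and -2.93 with 5. Among the 12192 genes tested for any difference among the 7 groups, of which 77.1% were called, Notch3 ranked 66 with F = 227.69. The same test called 4 of the 5 tested members.

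**Figure D1:**
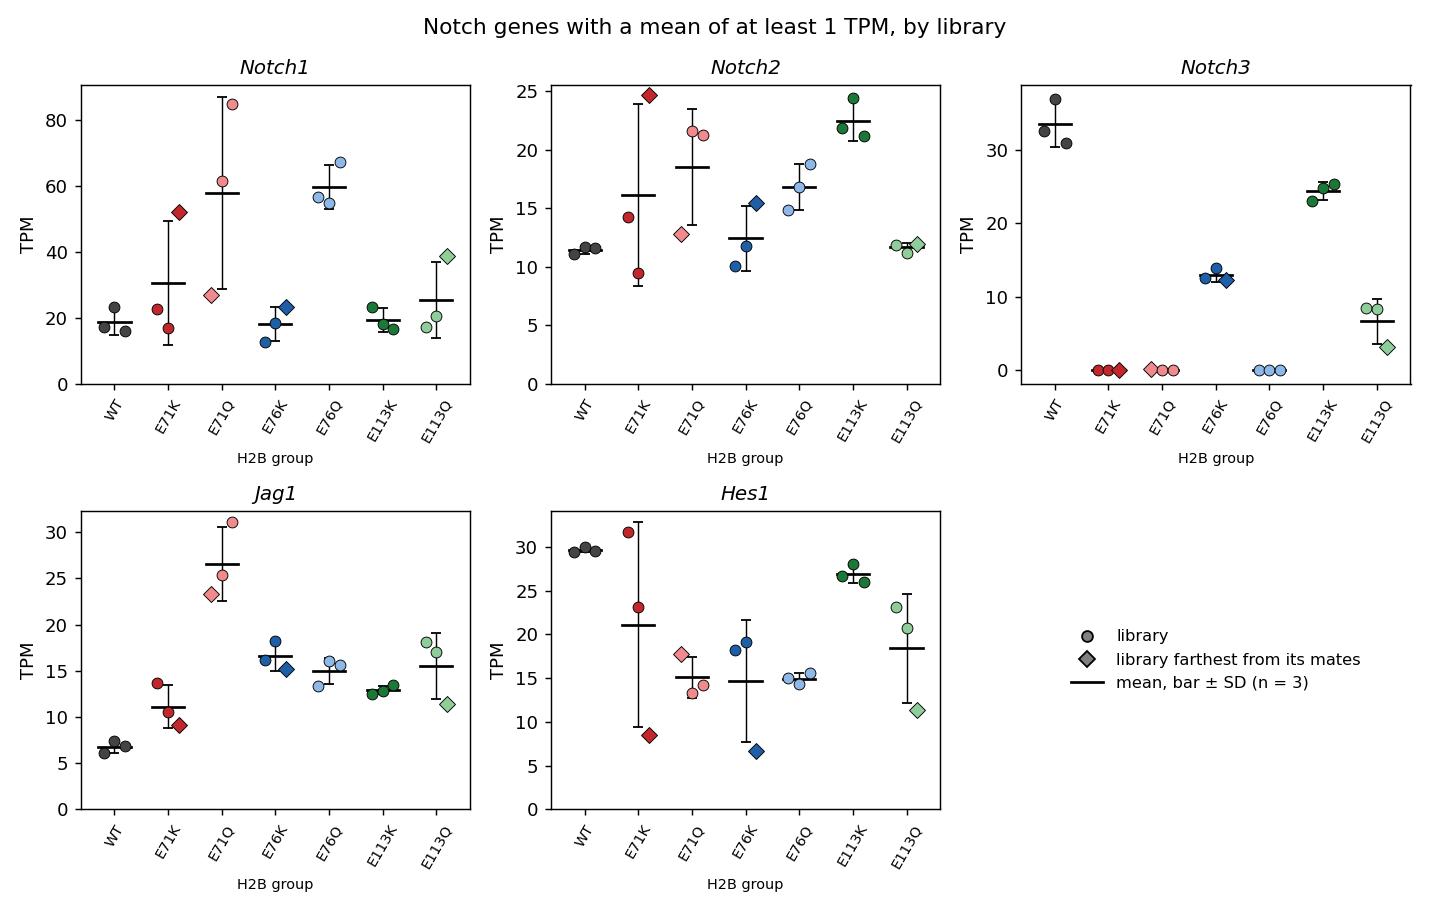
Level in TPM (vertical axis, linear from 0) of Notch1, Notch2, Notch3, Jag1 and Hes1 in each of the 21 libraries (points; diamonds for the 4 libraries that lay apart), with a line for the group mean and a bar of ± SD over 3 libraries. Notch3 averages 33.5 TPM in WT and is at most 0.104 TPM in every library of E71K, E71Q and E76Q, while the other 4 genes stay above 6 TPM throughout.

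Notch1 (Entrez 18128), the receptor most studied in blood and vessel development, is on the minus strand of chromosome 2 (GRCm38 26457902 to 26503822). It was 17.1, 23.4 and 15.8 TPM in WT. In E76Q it was 56.6, 54.9 and 67.1 TPM, above every WT library, and it rose by a log2 fold change of 1.63 ± 0.40 (SE; limma adjusted p = 0.00359). In E71Q it was 26.9, 61.5 and 84.8 TPM and rose by 1.44 ± 0.40 (limma adjusted p = 0.00802). All 3 E71Q libraries were above all WT libraries, but they differed widely. By limma the rise was 1.10 without replicate 3 (adjusted p = 0.0525) and 1.91 without replicate 1, the library that lay apart (0.000945). Without all 4 libraries that lay apart it was also 1.91 (limma adjusted p = 5.81e-06).

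Notch1 was not called in E71K, E76K, E113K or E113Q. E71K had 22.6, 16.8 and 52.0 TPM, of which only replicate 3 lay above the WT range. The E71K fold change of 0.53 did not pass (limma adjusted p = 0.37), and it was 0.07 without that library. E76K had 12.7, 18.5 and 23.2 TPM (-0.07, adjusted p = 0.926; -0.25 without replicate 3) and E113K 23.4, 18.0 and 16.6 TPM (0.04, 0.945), both overlapping WT. E113Q had 17.2, 20.4 and 38.6 TPM (0.35, limma adjusted p = 0.544; 0.02 without replicate 3). In the order of mean levels, E76Q, E71Q, E71K, E113Q, E113K, WT and E76K, no neighbouring groups were separate from each other.

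Notch2 (Entrez 18129), a receptor with broad expression, is on the plus strand of chromosome 3 (GRCm38 98013538 to 98150367). WT had 11.1, 11.7 and 11.6 TPM. E113K had 21.9, 24.5 and 21.2 TPM, a rise of 0.92 ± 0.24 (SE; limma adjusted p = 0.00485) with no overlap. E113Q, with 11.9, 11.2 and 11.9 TPM, lay at the WT level (0.02, adjusted p = 0.962; 95% interval -0.49 to 0.54). E71Q had 12.8, 21.6 and 21.2 TPM and passed narrowly (0.62, limma adjusted p = 0.0488). That call did not hold with a pseudocount of 5 (adjusted p = 0.0512), without the intensity trend (0.052), without a filter (0.0733), in a fit of the 2 groups (0.0608), without E71Q replicate 2 (0.174) or 3 (0.161), or without any 1 of the WT libraries (0.0897 to 0.111). Without the 4 libraries that lay apart it was 0.85 (limma adjusted p = 0.000145).

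In E76Q, Notch2 was 14.8, 16.8 and 18.8 TPM, above all WT libraries, with a fold change of 0.51 that did not pass (limma adjusted p = 0.0971). It passed after median-ratio rescaling (0.0178), after quantile normalization (0.0277), when Mir6236 was dropped (0.0137) and when the 4 libraries that lay apart were dropped (0.00285). E71K had 14.3, 9.48 and 24.7 TPM (0.36, adjusted p = 0.30), and its replicate 2 lay below WT while the others lay above. Mir6236 took 30.6% of the TPM of E71K replicate 2, which lowers every other gene there. Its part in this Notch2 value was not tested. Without replicate 2 the E71K difference was 0.67 (limma adjusted p = 0.0274), and without the 4 libraries that lay apart it was 0.02 (0.922). E76K had 10.0, 11.8 and 15.5 TPM and overlapped WT (0.09, adjusted p = 0.813).

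The receptors together show how the make-up of Notch RNA differed between groups. The summed TPM of Notch1, Notch2, Notch3 and Notch4 was 65.5 ± 7.08 (SD, n = 3) in WT, and Notch3 made up 51.2% ± 0.770 of it. In E113K the sum was 66.6 ± 3.05 TPM with 36.7% ± 3.35 from Notch3. In E76Q the sum was 77.7 ± 8.44 TPM, of which Notch3 gave 0.0605% and Notch1 76.7%. In E71Q it was 77.3 ± 34.0 TPM with 0.119% from Notch3, and in E71K 47.3 ± 26.4 TPM with 0.106%. E76K had 44.5 ± 7.83 TPM and 29.7% ± 5.60 from Notch3, and E113Q had 44.2 ± 8.57 TPM and 16.3% ± 9.05. The receptor sum in E76K and E113Q thus lay below every WT library, and in E76Q it overlapped the WT range. The share of Notch1 was 28.4% in WT and 28.9% in E113K, and 63.2% and 72.9% in E71K and E71Q. These sums were not tested.

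**Figure D2:**
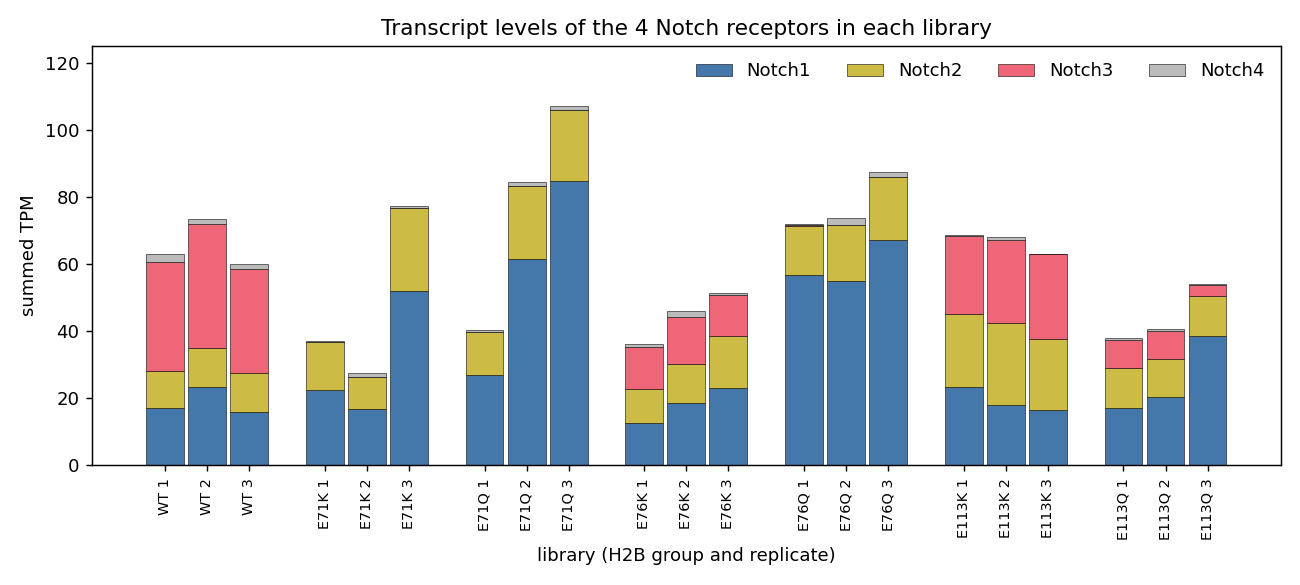
Summed TPM of the 4 Notch receptors (vertical axis) in each library (1 bar from 0 per library, labelled with group and replicate), divided into Notch1, Notch2, Notch3 and Notch4. Notch3 fills on average 51.2% of the WT bars and is too small to see in E71K, E71Q and E76Q, where Notch1 is the largest part.

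Jag1 (Entrez 16449), a ligand of the Jagged type on the minus strand of chromosome 2 (GRCm38 137081451 to 137116520), rose in all 6 mutants. WT had 6.08, 7.42 and 6.86 TPM, below all 18 mutant libraries. E71Q had 23.3, 25.4 and 31.1 TPM and was separate from every other group. E76K had 16.1, 18.3 and 15.2 TPM, E76Q 13.3, 16.0 and 15.6 TPM and E113Q 18.1, 17.0 and 11.4 TPM. These 3 groups overlapped each other, with E113Q replicate 3 the lowest library. E113K had 12.5, 12.8 and 13.5 TPM and E71K 13.7, 10.5 and 9.13 TPM, and they overlapped E113Q.

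The log2 fold change of Jag1 against WT, with a standard error of 0.16, was 1.82 in E71Q (limma adjusted p = 9e-08), 1.17 in E76K (2.46e-05) and 1.06 in E113Q (7.77e-05). It was 1.04 in E76Q (limma adjusted p = 7.05e-05), 0.84 in E113K (0.000395) and 0.62 in E71K (0.00757). The E71K rise did not pass in a fit of only the 6 libraries of E71K and WT (adjusted p = 0.104). The 6 mutants were compared with the same 3 WT libraries, so these results are not independent of each other.

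The other ligands were low. Jag2 (chromosome 12), the second Jagged ligand, was 0.325, 0.230 and 0.260 TPM in WT and 0.306, 0.147 and 0.215 TPM in E71K. E71Q had 0.117, 0.0902 and 0.0967 TPM, E76Q 0.0703, 0.135 and 0.161 TPM, and E113Q 0, 0.0729 and 0.0226 TPM. E76K had 0.0257, 0 and 0.0302 TPM and E113K 0.0227, 0.0240 and 0 TPM. Jag2 in every mutant but E71K therefore lay below all WT libraries, at levels where TPM gives no read count to judge them by. Fitted without a filter on low genes (20157 genes), Jag2 fell in these 5 mutants (limma adjusted p from 2.19e-05 in E113K to 0.00415 in E76Q). Dll1 (chromosome 17), a Delta-type ligand, was at most 0.168 TPM and was listed at 0 in 8 libraries, and in the same fit it fell in E76Q (limma adjusted p = 0.042). Every E76Q library was listed at 0 for Dll1 and adds no spread to the pooled fit, which tends to lower this p-value.

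Hes1 (Entrez 15205), a repressor and a direct Notch target in many cell types, is on the plus strand of chromosome 16 (GRCm38 30065357 to 30067796). WT had 29.5, 30.0 and 29.5 TPM. E71Q had 17.7, 13.3 and 14.2 TPM and E76Q 15.0, 14.3 and 15.6 TPM. Both groups lay wholly below WT with a small spread, and their fold changes of -0.94 each missed the threshold (limma adjusted p = 0.0522 and 0.0514). The spread used for Hes1 in this fit is pooled over all 7 groups. Without the 4 libraries that lay apart, the changes were -1.06 in E71Q (limma adjusted p = 1.5e-06) and -0.94 in E76Q (1.56e-06). Neither E76Q nor WT lost a library. The E76Q change was the same, and its standard error went from 0.38 to 0.093. With replicate number as a block the adjusted p was 0.0203 for E71Q and 0.0199 for E76Q.

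E76K had 18.2, 19.1 and 6.70 TPM of Hes1 and fell by 1.09 on the log2 scale (SE 0.38, limma adjusted p = 0.0345). Without replicate 3 the fold change was -0.64 and did not pass (0.213), and without any 1 WT library the adjusted p was 0.0785 to 0.0793. When all 4 libraries that lay apart were left out, the same -0.64 passed (limma adjusted p = 0.000259). E71K had 31.7, 23.1 and 8.54 TPM (-0.65, adjusted p = 0.232), with replicate 1 above WT and replicate 3 the lowest, and the change was -0.13 (0.365) without the libraries that lay apart. E113Q had 23.2, 20.8 and 11.4 TPM (-0.72, limma adjusted p = 0.162). Without the libraries that lay apart its change was smaller, -0.42, and passed (limma adjusted p = 0.00522). E113K had 26.7, 28.0 and 26.0 TPM (-0.14, adjusted p = 0.792). All libraries of both E113 groups lay below all WT libraries. Hes1 did not pass the test of any difference among the 7 groups (F = 2.47, limma adjusted p = 0.081).

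Low Hes1 came with high Notch1 in 3 of the libraries that lay apart. Against the mean of its 2 mates, E71K replicate 3 had 2.64 times the Notch1 and 0.312 times the Hes1. E76K replicate 3 had 1.49 and 0.359 times, and E113Q replicate 3 had 2.05 and 0.518 times. E71Q replicate 1, which lay apart the other way, had 0.367 times the Notch1 and 1.29 times the Hes1 of its mates. Mki67, a marker of dividing cells, was 31.4 TPM in E71K replicate 3 (46.0 to 65.7 in its mates), 27.0 in E76K replicate 3 (41.4 to 50.1), 13.0 in E113Q replicate 3 (45.7 to 48.9) and 16.2 in E71Q replicate 1 (14.1 to 17.2). Its part in the Notch1 and Hes1 values was not tested. After group means were removed, Notch1 and Hes1 had a Pearson correlation of -0.71 over the 21 libraries, a description in which the libraries share their groups and the 4 libraries weigh heavily. Such a value was not particular to this pair. Notch2 and Hes1 had -0.68, Jag1 and Hes1 0.64, and Notch1 and Notch2 0.82.

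**Figure D3:**
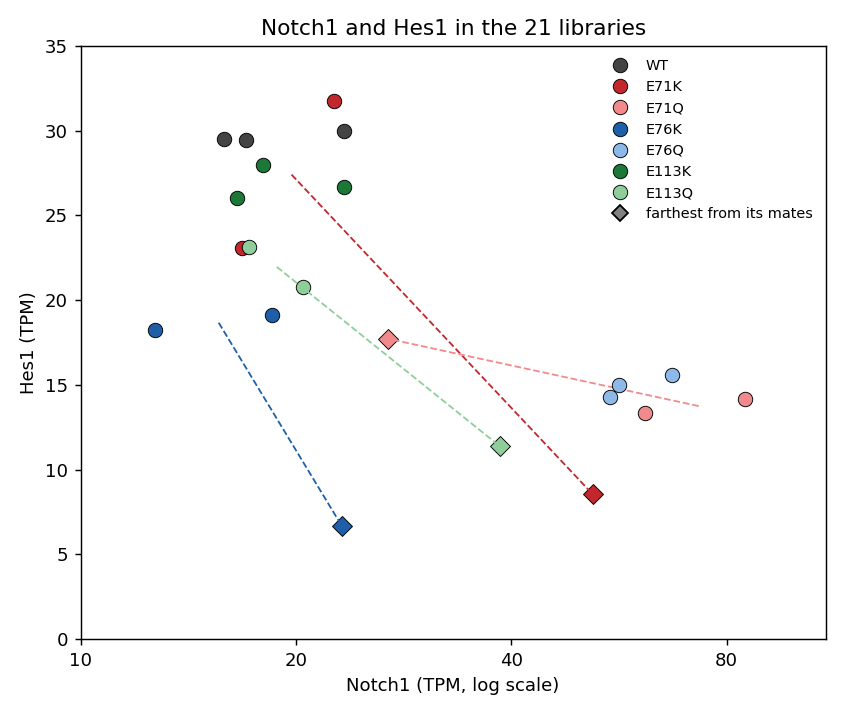
Notch1 in TPM (horizontal axis, log scale) against Hes1 in TPM (vertical axis, linear) for the 21 libraries coloured by group, with a diamond for each of the 4 libraries that lay apart and a dashed line from it to the mean of its mates. The 3 replicate 3 diamonds of E71K, E76K and E113Q lie right of and below their own mates, and the WT libraries lie together near 29.7 TPM of Hes1.

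The Hey genes, further repressors switched on by Notch, were all below a mean of 1 TPM. Hey2 (Entrez 15214, chromosome 10, minus strand, GRCm38 30832359 to 30842783), known for its role in heart and vessel development, was listed at 0 in every library of WT, E71Q and E113K. E113Q had 0.879, 1.28 and 0.904 TPM, E71K 0.566, 0.210 and 0.557 TPM and E76K 0.343, 0.484 and 0.202 TPM. In E76Q it was listed at 0 in 2 libraries and at 0.0448 TPM in replicate 3. All libraries of E113Q, E71K and E76K were thus above all libraries of the other 4 groups. In the fit without a filter, Hey2 rose in E113Q (log2 difference 1.01, limma adjusted p = 2.97e-07), E71K (0.52, 0.000411) and E76K (0.42, 0.00248). The spread in this fit is pooled over all groups. WT, E71Q and E113K were listed at 0 throughout and add no spread, which tends to lower the p-values. The same holds for Hey2 in the comparisons of lysine with glutamine below. No fold is given, since WT was listed at 0.

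The endothelial markers, a cell type in which Hey2 is also used, were summed beside it. They summed to 1.62 to 2.69 TPM in E71K and 3.26 to 4.09 TPM in E76K, against 0.486 to 0.589 TPM in WT. In E113Q, where Hey2 was highest, they summed to 0.564 to 1.16 TPM, and none of the 6 reached 1 TPM. Smooth muscle and pericyte markers summed to 135.9 to 141.9 TPM in WT, and to 216.5 to 230.6 TPM in E113Q, 154.3 to 270.1 TPM in E71K and 319.0 to 392.0 TPM in E76K, the groups with Hey2. They summed to 516.4 to 623.7 TPM in E76Q, 389.1 to 397.3 TPM in E113K and 113.1 to 130.7 TPM in E71Q. Acta2 made up most of these sums (99.2 TPM in WT to 524.8 TPM in E76Q), while Des was 6.57 TPM in WT and 1.19 TPM in E113Q and Myh11 was at most 0.380 TPM. Cspg4 was 32.1 TPM in WT and 44.7, 59.2 and 51.3 TPM in E113Q, E71K and E76K. It rose in these groups and also in E71Q and E113K, where Hey2 was listed at 0. Rgs5 averaged 5.17 TPM in E113K and at most 0.856 TPM in any other group. Their part in the Hey2 values was not tested.

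Hey1 (chromosome 3) was 0.0843, 0.103 and 0 TPM in WT and 0.0441, 0 and 0 TPM in E113K. E71K had 0.992, 0.941 and 0.279 TPM, E76K 0.850, 0.719 and 0.118 TPM and E71Q 0.545, 0.409 and 0.188 TPM. E113Q had 0.274, 0.496 and 0.352 TPM and E76Q 0.342, 0.315 and 0.262 TPM. Every mutant library outside E113K was above all WT libraries. The lowest Hey1 values of E71K and E76K were in replicate 3, the libraries that lay apart. In the fit without a filter Hey1 rose in E71K (0.68, limma adjusted p = 0.00796) and E76K (0.52, 0.0334). Heyl (chromosome 4) was at most 0.135 TPM and listed at 0 in 10 libraries.

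**Figure D4:**
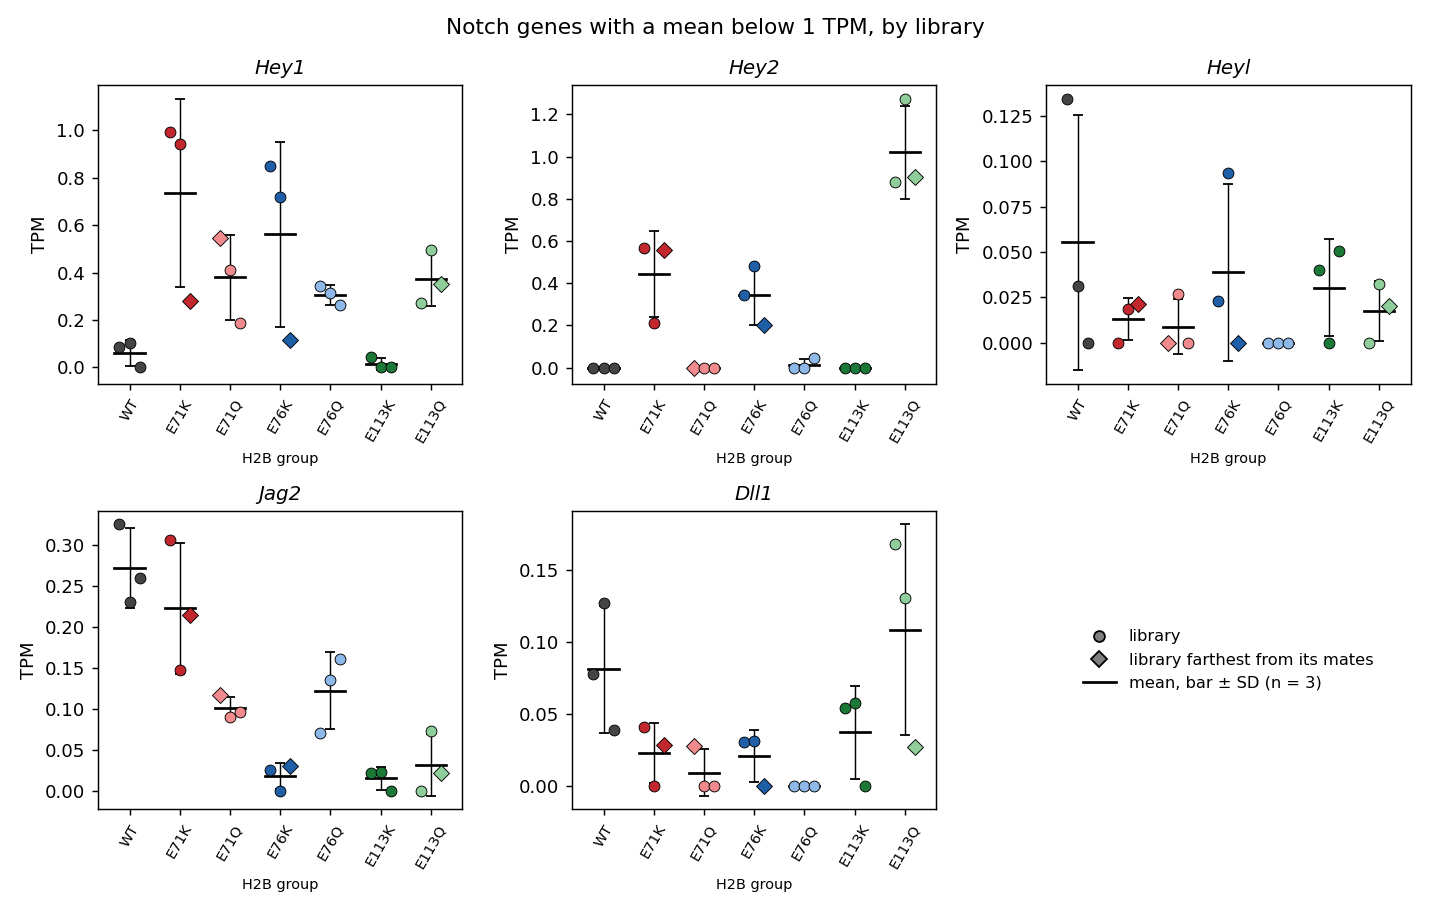
Level in TPM (vertical axis, linear) of Jag2, Dll1, Hey1, Hey2 and Heyl in each library (points; diamonds for the 4 libraries that lay apart), with a line for the group mean and a bar of ± SD over 3 libraries. The scale differs between genes. Hey2 is present in E71K, E76K and E113Q and listed at 0 in every WT, E71Q and E113K library, and Hey2 in E113Q replicate 2 is the only value above 1 TPM.

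Counted over the 5 tested members, 1 rose and 1 fell in E71K, where 26.7% of all tested genes were called (12.5% risen, 14.2% fallen). In E71Q 3 rose and 1 fell, of all genes 44.2% (20.7% risen, 23.5% fallen). In E76K 1 rose and 2 fell, of all genes 33.2% (23.5% risen, 9.67% fallen). In E76Q 2 rose and 1 fell, of all genes 44.3% (22% risen, 22.4% fallen). In E113K 2 rose and none fell, of all genes 51% (30.3% risen, 20.7% fallen). In E113Q 1 rose and 1 fell, of all genes 30.6% (17.9% risen, 12.7% fallen). With 5 members these counts are a description. Jag1 is in each of them and Notch3 in all but E113K. The WT group is shared by all 6.

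**Figure D5:**
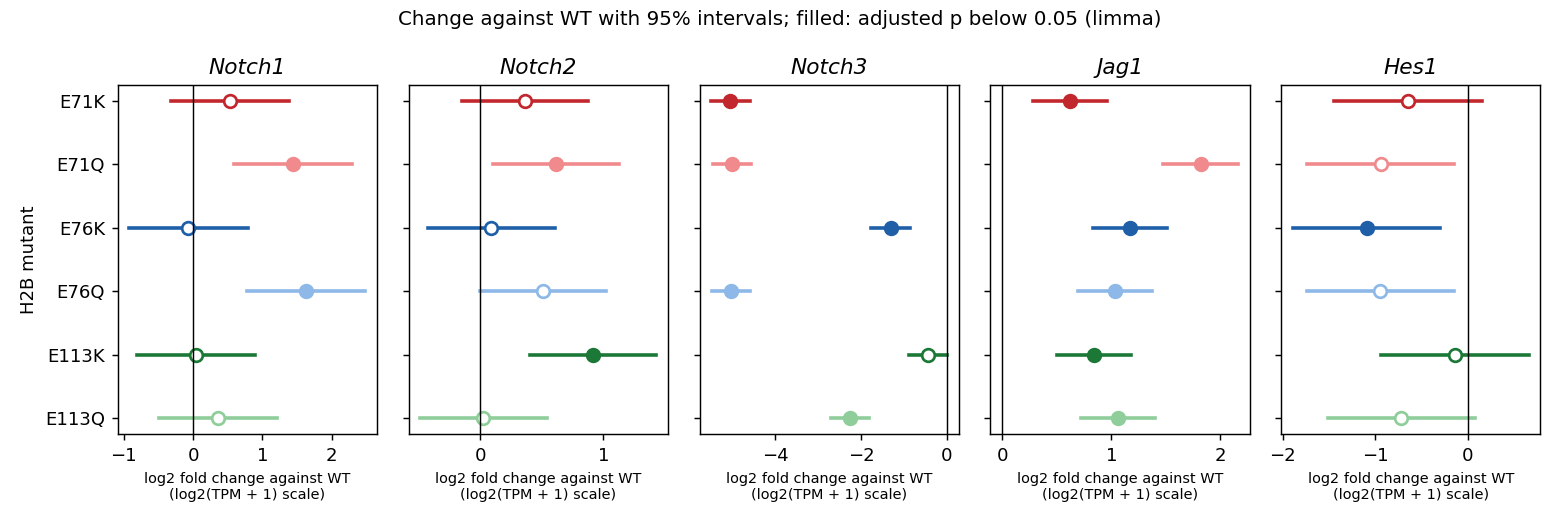
Log2 fold change against WT of log2(TPM + 1) (horizontal axis) for the 5 tested members in each of the 6 mutants, with bars for the 95% interval and filled points for an adjusted p below 0.05. Jag1 lies right of 0 in all 6 mutants, and Notch3 lies near -5 in E71K, E71Q and E76Q.

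Lysine and glutamine at the same residue were compared next, a contrast in which both groups carry a changed residue. At E76 the 2 groups differed in their receptor RNA. Notch3 was 12.9 ± 0.908 TPM (SD, n = 3) in E76K and 0.0471 ± 0.0107 TPM in E76Q, a log2 difference of 3.73 (SE 0.21, limma adjusted p = 3.84e-10). Notch1 was 18.1 ± 5.25 TPM in E76K and 59.6 ± 6.60 TPM in E76Q, a difference of -1.70 (SE 0.40, limma adjusted p = 0.0039). These were the 2 of 5 members called, with 31.9% of all genes called (23.4% higher and 8.46% lower in E76K). Jag1 differed by 0.14 (95% interval -0.21 to 0.48) and Notch2 by -0.42 (-0.94 to 0.09, limma adjusted p = 0.199), and neither passed. The Notch2 difference was -0.57 and passed after median-ratio rescaling, and was -0.58 (limma adjusted p = 0.00351) without the libraries that lay apart. Hes1 differed by -0.15 (limma adjusted p = 0.805), which became 0.30 (0.0276) without the libraries that lay apart, a change of sign made by E76K replicate 3.

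At E113 both called members were higher with lysine (28% of all genes called, 14.6% higher and 13.3% lower in E113K). Notch3 was 24.4 ± 1.22 TPM (SD, n = 3) in E113K and 6.66 ± 3.04 TPM in E113Q, a log2 difference of 1.82 (SE 0.21, limma adjusted p = 9.06e-06). Notch2 was 22.5 ± 1.73 TPM in E113K and 11.7 ± 0.40 TPM in E113Q, a difference of 0.89 (SE 0.24, limma adjusted p = 0.0117). Hey2 went the other way: it was listed at 0 in E113K and at 0.879 to 1.28 TPM in E113Q (-1.01 in the fit without a filter, limma adjusted p = 9.09e-07). Jag1 (-0.22, adjusted p = 0.328), Notch1 (-0.31, 0.61) and Hes1 (0.58, 0.273) did not pass by limma. Without the libraries that lay apart, Jag1 (-0.42, limma adjusted p = 0.0149) and Hes1 (0.28, 0.0406) passed, and Notch1 was 0.03 (0.944).

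At E71, Jag1 was 11.1 ± 2.35 TPM (SD, n = 3) in E71K and 26.6 ± 4.0 TPM in E71Q, a log2 difference of -1.20 (SE 0.16, limma adjusted p = 5.1e-05), and it was the 1 member called (25.1% of all genes called, 12.8% higher and 12.3% lower in E71K). In a fit of those 6 libraries alone its adjusted p was 0.0515. Notch3 was near 0 in both groups (-0.04, 95% interval -0.48 to 0.41). Notch1 differed by -0.91 (95% interval -1.77 to -0.06, adjusted p = 0.107). It passed without E71K replicate 3 (-1.37, limma adjusted p = 0.0116), without E71Q replicate 1 (-1.38, 0.0159) and without all 4 libraries that lay apart (-1.84, 2.67e-05). Notch2 (-0.25, adjusted p = 0.475) and Hes1 (0.30, 0.605) did not pass, and without the 4 libraries that lay apart they were -0.83 (limma adjusted p = 0.000474) and 0.93 (1.7e-05). Hey2 was 0.210 to 0.566 TPM in E71K and listed at 0 in E71Q (0.52 in the fit without a filter, limma adjusted p = 0.00103).

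Whether the lysine minus glutamine difference itself varied between residues was tested as an interaction in the same fit. For Notch3 it differed between all 3 pairs of residues: by -3.77 between E71 and E76 (limma adjusted p = 4.6e-08), by -1.86 between E71 and E113 (0.000216) and by 1.91 between E76 and E113 (0.000164). For Jag1 it differed between E71 and E76 (-1.33, limma adjusted p = 0.000354) and between E71 and E113 (-0.97, 0.00367). For Notch2 it differed between E71 and E113 (-1.14, limma adjusted p = 0.0173) and between E76 and E113 (-1.31, 0.00811). Of all tested genes, 21.7%, 32.7% and 29.5% were called for the pairs E71 and E76, E71 and E113, and E76 and E113. Notch1 and Hes1 were not called in any of the 3. Notch1 for E76 and E113 did pass after median-ratio rescaling (limma adjusted p = 0.0278) and quantile normalization (0.0265). It also passed without Mir6236 (0.0353) and with replicate number as a block (0.0421). Without the 4 libraries that lay apart, Notch1 passed for E71 and E113 (-1.86, limma adjusted p = 0.000261) and for E76 and E113 (-1.91, 0.000179). Jag1 then passed for E76 and E113 (0.61, limma adjusted p = 0.0112). Hes1 then passed for E71 and E76 (0.63, limma adjusted p = 0.00505) and for E71 and E113 (0.65, 0.00289).

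The wider pathway was described by 47 further genes listed by function, of which 35 reached a mean of 1 TPM. Of these 35, 7 rose and 5 fell in E71K, where 12.5% of all tested genes rose and 14.2% fell, with a median log2 fold change of 0.18 against 0 over all tested genes. In E71Q 15 rose and 4 fell (all genes 20.7% and 23.5%; median 0.33 against 0). In E76K 9 rose and 3 fell (all genes 23.5% and 9.67%; median 0.20 against 0.16). In E76Q 7 rose and 6 fell (all genes 22% and 22.4%; median 0.04 against 0.02). In E113K 17 rose and 3 fell (all genes 30.3% and 20.7%; median 0.36 against 0.13). In E113Q 12 rose and 5 fell (all genes 17.9% and 12.7%; median 0.16 against 0.06). The E71K count moved with the scaling and with the libraries used: 13 rose and 7 fell after median-ratio rescaling, 16 and 5 when Mir6236 was dropped, and 6 and 10 when the 4 libraries that lay apart were. When Mir6236 was dropped, 23 rose and 4 fell in E71Q, and 12 rose and 5 fell in E76Q. After median-ratio rescaling 9 rose and 6 fell in E76K and 16 rose and 5 fell in E113K. Between lysine and glutamine, 2 were higher and 4 lower in E71K than E71Q (3 and 22 without those libraries, 5 and 10 after rescaling), 5 higher and 2 lower in E76K than E76Q (6 and 6 after rescaling), and 7 and 2 in E113K against E113Q (14 and 2 without those libraries, 10 and 3 after rescaling). Notch4, Dll3, Dll4, Dlk1, Mfng, Neurl1a, Dtx1, Nrarp, Hes2, Hes3, Hes5 and Helt were below 1 TPM on average, and none of the 47 was at 0 in every library.

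Rbpj, the DNA-binding protein through which cut Notch acts, fell in all 6 mutants. It was 63.5 ± 2.55 TPM (SD, n = 3) in WT and 14.9 ± 0.936 TPM in E71Q, its lowest group (log2 fold change -2.02). The other mutants had 42.2 ± 6.57 TPM (E71K, -0.59), 42.7 (E76K, -0.56), 42.8 (E76Q, -0.56), 45.7 (E113K, -0.47) and 39.1 ± 12.8 TPM (E113Q, -0.74). Rbpj was higher in E71K than in E71Q by 1.43 (limma adjusted p = 2.26e-05). The E113K call was lost in the fit without a filter. Neurl1b, an E3 ligase that acts on Notch ligands, also fell in all 6, from 8.91 ± 0.898 TPM in WT to between 0.431 TPM (E113K, -2.79) and 2.59 TPM (E76K, -1.49).

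Maml2, a Mastermind coactivator, rose in all 6 mutants, from 4.79 ± 0.218 TPM (SD, n = 3) in WT, with log2 fold changes of 0.76 (E71K) to 1.35 (E76K). Hes6, a Hes family member that opposes Hes1, rose in all 6 from 14.7 ± 1.53 TPM, by 0.66 (E71K and E76K) to 1.56 (E113K), and its E71K call was lost with a pseudocount of 5, without a filter, without the intensity trend and without the libraries that lay apart. Its E76K call was lost without a filter. Aph1b, a gamma-secretase subunit, rose in all 6 from 5.03 ± 0.251 TPM, by 0.88 (E76Q) to 1.64 (E71Q). Its calls in E71K, E76K and E76Q were lost with a pseudocount of 5 or without a filter. The E76K call was also lost after quantile normalization, and the E71K call without the intensity trend or with a mean of at least 5 TPM. Mouse Aph1b has a near-identical copy, Aph1c, with which it can share reads. Directions of these 5 genes were the same in every mutant under each scaling tried.

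Of the 9 tested genes of receptor cleavage, 2 rose in E71K, 5 in E71Q, 4 in E76K, 1 in E76Q, 6 in E113K and 5 in E113Q, and none fell. Of all tested genes 12.5%, 20.7%, 23.5%, 22%, 30.3% and 17.9% rose in the same mutants. The median log2 fold changes of the 9 were 0.24, 0.42, 0.38, 0.12, 0.57 and 0.49, against 0, 0, 0.16, 0.02, 0.13 and 0.06 over all tested genes. After median-ratio rescaling 5 rose and 2 fell in E71K, and 3 rose and 1 fell in E76Q. When Mir6236 was dropped 5 rose in E71K, 8 in E71Q and 3 in E76Q, and none fell. Without the libraries that lay apart 2 rose and 2 fell in E71K, and 3 rose and 1 fell in E76Q. Adam10, the protease of the first cut after ligand binding, was 73.0 TPM in WT and 159.5 ± 25.3 TPM (SD, n = 3) in E71Q (log2 fold change 1.10). It also rose in E113K (0.66), E76K (0.65) and E113Q (0.52), while E76Q had 61.1 TPM (-0.26) and E71K 96.7 TPM (0.36), which did not pass. After median-ratio rescaling the E76Q fall (-0.26, limma adjusted p = 0.0258) and the E71K rise (0.38, 0.00381) both passed, and the E71K rise also passed after quantile normalization (0.43) and when Mir6236 was dropped (0.49). The E76Q fall also passed after quantile normalization (-0.253, limma adjusted p = 0.0274) and without the libraries that lay apart (-0.255, 0.027). It did not pass when Mir6236 was dropped. Adam17, a related protease, was 20.2 TPM in WT and rose in E71Q (43.0 TPM, 1.05), E71K (38.4 TPM, 0.87), E113K (0.57) and E113Q (0.49). Its E76Q value of 0.23 did not pass, and passed after median-ratio rescaling (limma adjusted p = 0.0184), after quantile normalization (0.0196), when Mir6236 was dropped (0.00623) and when the libraries that lay apart were (0.0264).

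Among regulators, the E3 ligase Dtx4 resembled Notch3 in where it was low. It was 9.49 ± 1.11 TPM (SD, n = 3) in WT, 2.32 TPM in E71K, 0.900 TPM in E71Q, 1.17 TPM in E76Q and 4.88 TPM in E113Q, and it fell in these 4 (log2 fold changes -1.66, -2.46, -2.28 and -0.83). E76K had 8.97 TPM (-0.07, not called). E113K had 12.6 TPM (0.38), a rise that was lost under each rescaling. Numbl, related to the Notch antagonist Numb, was 31.6 ± 0.376 TPM in E113K against 14.9 TPM in WT, a rise of 1.04 (SE 0.12, limma adjusted p = 1.38e-06). In the other 5 mutants it was 15.8 to 17.4 TPM and did not pass, though it rose in E71K, E71Q and E76Q when Mir6236 was left out.

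For each tested member with a mean of at least 5 TPM, the 2 genes with the most similar profile over the 21 libraries were found among 9917 genes by Pearson correlation of log2(TPM + 1). The libraries share their groups and scaling, so the values describe profiles only. Notch3 was most like Alcam (0.957), a cell adhesion molecule, and Arl6ip1 (0.951). Notch1 was most like 1810058I24Rik (0.933) and Mxra7 (0.924), and Notch2 like Rreb1 (0.944) and Nktr (0.939). Jag1 was most like Ikbkg (0.900) and Prss23 (0.884). Hes1 had the weakest matches, Lhfpl2 (0.821) and Rnaseh2b (0.817).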

How the data were processed

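Per the labels, RNA came from an RNeasy kit and libraries from the NEBNext Ultra II kit. The submitters' processing notes name Salmon, featureCounts 1.4.4, DESeq and build mm10, without saying which tool made the TPM values; strand and poly(A) selection are not given in the sources used here. The authors deposited TPM per library and as group means; the means were not used. TPM totals were 999897 to 999931, and TPM keeps no read total, so depth is unknown and no counting interval or limit for a value of 0 can be given.

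The 12192 genes averaging 1 TPM or more over 21 libraries were fitted as log2(TPM + 1) by limma 3.58.1 (R 4.3.3) with variance moderation that follows the mean level; residual degrees of freedom were 14 and prior ones 3.19. The 6 mutants were compared with WT, and lysine with glutamine at each residue. An F test and, added later, 3 interactions were taken from the same fit. P-values were adjusted within each comparison by the Benjamini-Hochberg method over all tested genes, with a threshold of 0.05. The fit was tested on simulated data. Members and gene lists were chosen with earlier results of these data known. All members were named, and of the 47 other pathway genes those called in 1 direction in all 6 mutants and up to 4 others with the highest F. Promoters came from RefSeq (GRCm38.p6). Alternatives were pseudocounts of 0.1 and 5, no filter or a mean of at least 5 TPM, median-ratio rescaling, quantile normalization, no trend, robust moderation, replicate number as a block, fits of 2 groups, each library left out, Mir6236 left out, and the 4 libraries set apart left out. The 4 libraries set apart are those farthest from their mates in groups with a span over 10 on the first principal component of deviations from the group means.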

Additional observations from a re-analysis of the deposited data

Results flagged for a closer look

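For 3 members the difference between lysine and glutamine was itself different between residues, by limma's interaction test in the fit of all 21 libraries. Notch3 was near 0 TPM with either substitution at E71, but was higher with lysine at E76 and E113: the lysine minus glutamine difference at E71 was below that at E76 by 3.77 on the log2 scale (-3.77, adjusted p = 4.6e-08) and below that at E113 (-1.86, 0.000216). It was above that at E113 for E76 (1.91, limma adjusted p = 0.000164).

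Jag1 was lower with lysine than with glutamine at E71, and the difference there was below that at E76 (-1.33, limma adjusted p = 0.000354) and at E113 (-0.97, 0.00367). Notch2 was higher with lysine at E113, and the difference at E113 exceeded that at E71 (-1.14 for E71 minus E113, limma adjusted p = 0.0173) and at E76 (-1.31 for E76 minus E113, 0.00811). All 7 results had the same direction and stayed below an adjusted p of 0.05 after median-ratio rescaling, quantile normalization, without Mir6236, without the 4 libraries that lay apart from their mates, and with replicate number as a block. Other pseudocounts are not among these alternatives. The size of the Notch3 fold changes depends on the pseudocount in the groups near 0, E71K, E71Q and E76Q, so the sizes of its interactions are tied to the value used.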

How the results depend on the processing

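Over 45 changes of single members (5 members, 9 comparisons), 810 alternative values were computed: 756 stayed on their side of the threshold, 35 passed where the reported value did not, 18 no longer passed and 1 changed sign and passed, Hes1 in E76K against E76Q, 0.30 without the libraries set apart and -0.15 with them. The cause of changes in calls was not tested, except that without a filter 10 members are tested in place of 5. Members called then numbered 4 in E71K, 5 in E76K, 5 in E76Q, 4 in E113Q, 3 in E71K against E71Q, 4 in E76K against E76Q and 8 in the F test. In fits of only 2 groups they numbered 1 in E71K, 5 in E76Q, 4 in E113K and 0 in E71K against E71Q, and no F test was made. Without the libraries set apart they numbered 5 in E76Q, 4 in E71K against E71Q, 4 in E76K against E76Q and 4 in E113K against E113Q. All genes called in these comparisons then numbered 7309, 6541, 6054 and 5486, against 5403, 3060, 3890 and 3408 in the main fit. Leaving out each library in turn gave 2 to 4 members in E71Q and 1 to 3 in E71K against E71Q. Member counts moved together with the number of all genes called. Where that number is not given here or below, as without a filter, the member count is a description only.

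Of all genes, 3250 were called in E71K, and 5135 after median-ratio rescaling, 5109 after quantile normalization, 5208 without Mir6236, 4939 without the libraries set apart and 1442 in a fit of 2 groups. For E71K against E71Q the count of 3060 became 5263, 5147, 4961, 6541 and 346 under the same settings, and 1815 to 4713 with 1 library left out. For E113K against E113Q 3408 became 5302, 5294 and 5486 after rescaling, quantile normalization and without the libraries set apart. In fits of 2 groups 4044 became 6136 for E76K and 5403 became 8276 for E76Q. E113Q went from 3734 to 5627 with quantile normalization, and E76K against E76Q from 3890 to 6054 without the libraries set apart.

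Scaling moved the share of called genes that rose. In E76K it was 70.8% as deposited and 53.1% after median-ratio rescaling, where the median log2 change of all genes goes from 0.16 to 0.01; in E76K against E76Q it was 73.5% and 49.5%. In E71K it was 46.9% as deposited, 65.8% without Mir6236 and 33.0% without the libraries set apart. In E71Q it was 46.8%, 59.8% and 59.4%, in E76Q 49.5% and 61.1% without Mir6236, and in E71K against E71Q 51.1% and 28.1% without the libraries set apart.

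The labels give only replicate numbers. Same-numbered libraries of different groups had deviations from their group means that correlated at -0.17 to 0.42 (median -0.0011, 63 pairs). Differently numbered ones correlated at -0.40 to 0.29 (median -0.0013, 126 pairs). Deviations within a group sum to 0, so the 2 kinds of pair are not independent of each other. Neither median shows a pairing by number common to most groups. Whether the numbers pair the libraries of some groups cannot be decided from these values. With a replicate block, members called were 2 in E71K, 5 in E71Q, 3 in E76K, 4 in E76Q, 2 in E113K, 2 in E113Q, 1, 2 and 2 for lysine against glutamine at E71, E76 and E113, and 5 in the F test, and all genes called were 3395, 5545, 4238, 5596, 6322, 3955, 3277, 4039, 3583 and 9553. Depth is unknown, so the counting error of values below 1 TPM cannot be given.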
